A study of Saposhnikovia divaricata with 9 samples.

Results

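In leaves of Saposhnikovia divaricata, 15 of the 63753 transcript clusters in the deposited table were high in every library of group C and low in every library of groups M and L. They were chosen by measured values, on FPKM, the fragments assigned to a cluster scaled by its length and by the mapped fragments of the library. The lowest C value had to reach 10 FPKM and at least 3 times the highest of the 6 M and L values plus 1. The ratio of the L mean plus 1 to the M mean plus 1 had to lie from 0.5 to 2, the lowest M value below 2 times the highest L value plus 1, and the C mean below 1000 FPKM. Since the choice used all 9 libraries, the contrast of C with M and L is a description here and supports nothing.

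Saposhnikovia divaricata is a perennial medicinal herb of the carrot family. The study's design text describes plants aged 48 days that were left untreated or kept at 4 °C for 6 h or 48 h, and 3 libraries of each kind. The labels give only the codes C, M and L with replicates 1 to 3, for poly(A) RNA of leaves, and tie no code to the untreated state or to a time in the cold. No order in time is therefore read into the codes. All plants had the same age, no genotype or cultivar is given in the labels, and whether replicates came from separate plants is not stated. The text on extraction names an animal tissue, which cannot describe a plant.

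In many plants a cold spell is followed by waves of change in messenger RNA. Transcription factors of the CBF family rise early and switch on protective genes, while many transcripts linked to growth fall. How far a transcript falls depends on both its synthesis and its decay, and RNA levels alone do not separate these. The clusters carry no gene names, descriptions or sequences in the table used here, so none of the 15 can be tied to such a role. Leaf identity could not be checked against marker genes for the same reason. Identifiers are printed for 2 clusters, and the others are called by their rank of mean FPKM in C. In bulk leaf RNA, fewer cells of a type and less RNA per cell cannot be told apart.

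The libraries held FPKM sums from 863749 to 932785, and between 42138 and 51009 clusters were listed above 0 in a library. The number of fragments per library is not given. Low values move in steps of single fragments, and the most frequent ratio of such values put the depths of the other 8 libraries at about 0.953 to 1.15 times that of C replicate 1. Against C replicate 1 that peak was weakest for the L libraries, with 96 to 152 clusters against 26 to 31 in a typical window of ratios. Against M replicate 3 it held 205 to 460 clusters for the L libraries and 162 to 240 for the C libraries. The median of all 63753 clusters was 0.89 to 1.12 FPKM in the C libraries, 1.17 to 1.20 in M and 0.47 to 0.83 in L, so the typical cluster stood lower in L as deposited. C replicate 2 had the most values far below the rest of its group. Of 10603 clusters with at least 10 FPKM in both other C libraries, 343 were at least 3-fold lower there, with 1 FPKM added. Counted in the same way, these were 55 of 10315 in C replicate 1 and 3 of 9882 in C replicate 3. Values far above the other C libraries were not counted.

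Few clusters had the pattern. Of 63753 clusters, 9625 had at least 10 FPKM in all 3 C libraries, and 38 of these also stood at least 3-fold, with 1 FPKM added, above every M and L value. Among the 38, the ratio of L to M was below 0.5 in 22 clusters, above 2 in 1 cluster and within the bounds in 15. The bounds on the lowest M value and on the C mean removed none of the 15.

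The name "lost" holds for a minority of the set. Listed at 0 in all 6 M and L libraries were 2 of the 15 clusters, and an exact 0 in such a table can be a failed estimate. Another 10 were above 0 in all 6 of these libraries, and the remaining 3 were at 0 in some of them. Over all 15 clusters, 8 of 45 M values and 10 of 45 L values were 0. The C values ranged from 12.6 to 217.07 FPKM, the M values from 0 to 23.88 and the L values from 0 to 15.87. Most clusters therefore kept a low but listed level in M and L.

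The most abundant of the 15 in C was Cluster-17261.14704, which also had the largest fall of M against C on the log2(FPKM + 1) scale. It stood at 217.07, 80.05 and 141.58 FPKM in C replicates 1 to 3, a mean of 146.2 ± 68.6 FPKM (SD, n = 3). All 3 M and all 3 L libraries listed it at 0. The C values differed 2.71-fold among themselves, the widest spread of the set, and replicate 2 was the lowest of them. No fold change is given for it, since both other groups are at 0. Its mean in C ranked 760th among all clusters.

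The other cluster listed at 0 throughout M and L was the eighth by abundance. Its C values were 27.71, 24.28 and 31.59 FPKM, which differed 1.30-fold. Its 3 C values did not overlap the 6 M and L values at 0, as the rule required of every cluster in the set. Apart from this pair, no cluster of the set was at 0 in all libraries of M or in all libraries of L.

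Cluster-17261.24226 was the second by abundance and kept the highest remaining level. Its FPKM in C replicates 1 to 3 were 168.1, 125.54 and 88.51. In M it was at 14.42, 23.88 and 15.84, and in L at 13.31, 7.71 and 15.87. Every C value exceeded every M and L value, as the rule required, while the M and L values overlapped. The M mean was 14.2% of the C mean and the L mean 9.65%. Its log2 fold change was -2.74 with a standard error of 0.318 in M against C and -3.28 with the same standard error in L against C. Its lowest C value was 3.56 times its highest M or L value plus 1, so it passed the bound of 3 by little despite its abundance.

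The third cluster was steadier in C and had a smaller part of its C level left in M and L, with means at 7.67% and 5.06% of the C mean. It was at 77.67, 90.69 and 82.88 FPKM in C. The M libraries held 4.24, 5.83 and 9.21 FPKM, and the L libraries 6.93, 1.56 and 4.23. Its lowest C value was 7.61 times its highest M or L value plus 1, the widest margin among the 13 clusters listed above 0 somewhere in M or L. Its lowest value was that of L replicate 2.

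The fourth cluster was listed at 0 in 3 of the 6 M and L libraries. It stood at 36.45, 47.34 and 36.25 FPKM in C. In M it was listed at 0, 6.03 and 0, and in L at 3.26, 0 and 4.67. Its M mean of 2.01 ± 3.48 FPKM (SD, n = 3) rests on replicate 2 alone. Its L to M ratio of 1.21 was the highest of the set, and the M and L values overlap from 0 upward.

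A further 3 clusters lay near 30 FPKM in C. The fifth held 42.01, 25.93 and 32.43 FPKM in C, 4.33, 4.59 and 2.76 in M and 1.96, 5.04 and 2.29 in L. The sixth held 28.39, 42.54 and 27.97 in C, 5.63, 2.85 and 0.56 in M and 1.42, 2.33 and 5.88 in L. In both of them the M and L values overlapped. The seventh held 26.26, 32.69 and 31.08 in C, 4.19, 6.82 and 5.74 in M and 1.88, 1.72 and 4.46 in L. Its L to M ratio of 0.56 was the lowest of the set, yet 1 L value still lay above the lowest M value.

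Below these, the ninth cluster held 25.23, 19.2 and 35.94 FPKM in C. It was at 1.72, 1.12 and 4.86 in M and at 1.39, 0.35 and 2.46 in L. Its C replicates differed 1.87-fold, and replicate 3 was the highest in all 3 groups.

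The tenth cluster fell close to 0 in L. Its C values were 21.76, 12.6 and 24.01 FPKM, its M values 0.47, 1.34 and 0.6, and its L values 0, 0.33 and 0. The L mean was 0.565% of the C mean, against 4.13% for the M mean. Here every L value lay below every M value, although no value of either group exceeded 1.34 FPKM.

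Of the 5 clusters under 20 FPKM that follow, the eleventh was at 18.04, 14.81 and 18.39 FPKM in C, 2.48, 2.01 and 2.53 in M and 2.6, 1.52 and 2.3 in L. The twelfth was at 17.33, 12.7 and 18.96 in C, 1.28, 0.19 and 2.59 in M and 1.57, 0.32 and 1.33 in L. Replicate 2 was the lowest in each group of both clusters. The fourteenth was at 14.94, 12.97 and 16.86 in C, 1.42, 1.72 and 3.08 in M and 0.73, 2.47 and 0.23 in L.

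The thirteenth cluster kept the largest part of its C level, with M at 20.7% and L at 16.0% of the C mean. It held 13.69, 19.61 and 13.6 FPKM in C, 3.51, 3.05 and 3.15 in M and 2.75, 1.96 and 2.78 in L. Every L value lay below every M value by a small step.

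The fifteenth and least abundant cluster had the narrowest spread in C, with 14.21, 13.57 and 12.88 FPKM and a coefficient of variation of 4.91%. It was at 0.65, 1.29 and 1.64 in M and at 0.5, 0.45 and 0 in L, again with every L value below every M value. It was the 1 cluster of the set whose identifier did not carry the parent number 17261, and its own parent number holds 1 cluster. The other 14 share that large parent number with 44526 clusters of the table. Among the 9625 clusters with at least 10 FPKM in every C library 99.9% carry it, so this number says little about the 14. Their identifier numbers within the parent lay at least 240 apart, so no pair of them was adjacent in numbering.

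**Figure D1:**
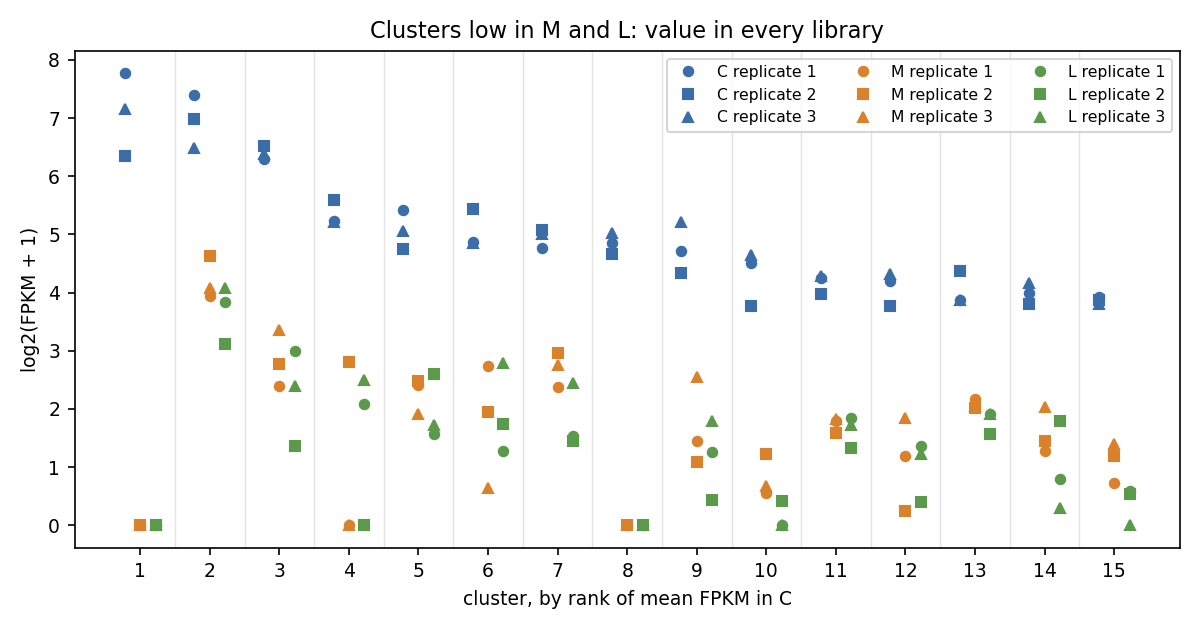
Each column is 1 of the 15 clusters, ordered by mean FPKM in C, and each point is 1 library on a log2(FPKM + 1) axis, with colour for the group and shape for the replicate. The C points lie above all M and L points in every column by the choice of clusters; clusters 1 and 8 are at 0 in all M and L libraries, and M and L points overlap in most other columns.

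Mean FPKM of the 15 clusters ran from 13.6 to 146.2 in C with a median of 27.9, from 0 to 18.0 in M with a median of 2.34 and from 0 to 12.3 in L with a median of 2.14. Only 2 of them had a C mean of at least 100 FPKM, and 12 had less than 50. Their median C mean was near the 27.2 FPKM of the 9625 clusters at 10 FPKM or more in every C library. Summed, the 15 clusters took 0.0720% ± 0.0100 of all FPKM in C, 0.00599% ± 0.000933 in M and 0.00415% ± 0.00128 in L (mean ± SD, n = 3). The set is thus made of moderately expressed clusters and holds a very small part of leaf RNA in any group.

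A linear model over all 35314 clusters with at least 1 FPKM in 3 or more libraries gave the background (limma on log2(FPKM + 1), called at a Benjamini-Hochberg adjusted p under 0.05 and at least 2-fold). All 15 clusters passed that filter, as their C values alone ensured. In M against C all 15 were called lower, beside 4.71% of all tested clusters called lower, and in L against C all 15 were called lower, beside 30.5%. The background in L against C depends on scaling: 10.2% of tested clusters were called higher as deposited, while 14.8% were called lower and 18.8% higher after median scaling and 18.2% and 14.6% after quantile normalization. Both comparisons share the C libraries that chose the clusters, so nothing is read from these counts. The median log2 fold change of the 15 was -3.00 in M against C and -3.28 in L against C, where all tested clusters had medians of -0.03 and -0.56. Without the 2 clusters at 0 in M and L, whose fitted values are set by the added 1 FPKM, the range was -4.41 to -1.96 with a median of -2.81 in M and -4.17 to -2.24 with a median of -3.14 in L.

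Between L and M, whose ratio the rule bounded, none of the 15 was called by limma, beside 31.7% of all tested clusters called in either direction. The split of that background was 25.7% lower and 6.00% higher as deposited, 10.9% and 15.2% after median scaling and 13.2% and 10.1% after quantile normalization. At an unadjusted p under 0.05 there were 3 of them, and 2 had an adjusted p under 0.05 with a fold below 2. No other tool was run. Every L value lay below every M value in 3 of the 15, beside 45.3% of all tested clusters. The mean as deposited was lower in L than in M in 11 clusters, higher in 2 and equal at 0 in 2. That direction turns with scaling: once each library was brought to the same median of tested clusters, L was lower in 4 and higher in 9. The median log2 change of L against M over the set was -0.31 as deposited and 0.15 after median scaling, while the median of all tested clusters was -0.55 and 0.05.

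**Figure D2:**
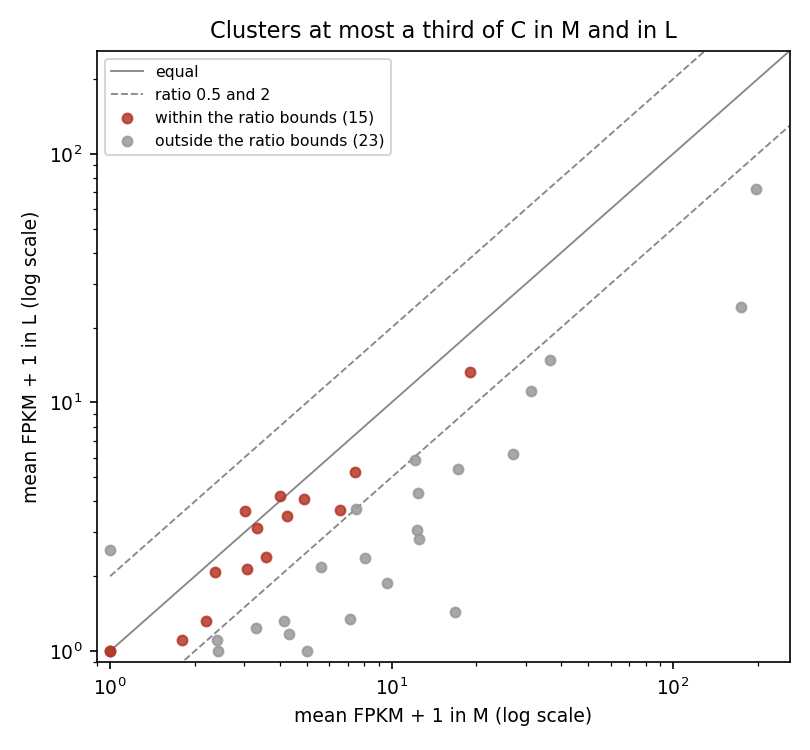
The mean FPKM plus 1 in L is plotted against that in M, both on log axes, for the 38 clusters that stood 3-fold or more below C in every M and L library. The 15 clusters within the dashed ratio bounds have M means up to 18.0 FPKM, while 22 of the others lie under the lower bound, up to an M mean of 196.4 FPKM, and 1 lies above the upper bound.

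The 22 clusters excluded because L was below 0.5 of M had higher levels in C. Their C means had a median of 46.4 FPKM and reached 931.7, and 6 of them had a C mean of at least 100. Their M means had a median of 9.86 FPKM, against 2.34 in the 15. Their L means had a median of 1.60 FPKM, against 2.14. With 1 FPKM added to both means, a ratio below 0.5 needs an M mean above 1 FPKM. The lowest M mean was 1.41 FPKM in the 22 and 0 in the 15. The C values also had to stand 3-fold above M, so the higher M and C levels follow in part from the rule. The M and L values took part in the choice of both sets, so no test is given.

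Values near the bounds show how finely the set was cut. Just inside the 3-fold bound, the thirteenth cluster had a ratio of 3.02, with the 9 values given above. Just outside, a cluster at 11.99, 13.22 and 16.2 FPKM in C had M values of 2.66, 2.13 and 3.01 and L values of 2.29, 1.04 and 0, a ratio of 2.99. At the lower bound of the L to M ratio, a cluster at 57.42, 85.31 and 60.26 FPKM in C, 4.49, 6.75 and 8.11 in M and 4.91, 0.71 and 2.55 in L was left out at a ratio of 0.4998. The 1 cluster over the upper bound held 11.04, 10.5 and 13.89 FPKM in C, was listed at 0 in all M libraries and held 2.43, 1.01 and 1.2 in L. At the bound on C, the nearest cluster outside held 9.43, 16.99 and 9.04 FPKM in C, 1.27, 1.72 and 1.15 in M and 0.34, 0.09 and 0.68 in L. Of the 15, 6 had a margin below 4 and 3 had one of at least 6.

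The size of the set hung on C replicate 2. Chosen without that library, by the same rule on the remaining 8, the set held 137 clusters, the 15 and 122 more. Without C replicate 1 it held 20 and without C replicate 3 it held 24. All 15 stayed in each time by the rule, since leaving out a C library cannot lower the lowest C value. The values in the left-out library, which such a choice did not use, could then be read. In C replicate 1 none of the 20 clusters was 3-fold or more below both other C libraries, and in C replicate 3 none of 24. Such values were rare in any case, at 0.53% of 10315 clusters in C replicate 1 and 0.03% of 9882 in C replicate 3. These are the clusters with at least 10 FPKM in both other C libraries. In C replicate 2, 83 of the 137 were, or 60.6%, beside 3.23% of the 10603 clusters with at least 10 FPKM in C replicates 1 and 3. The choice and this reading share C replicates 1 and 3, so clusters that are high in both enter easily.

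Across the 122 added clusters the median FPKM was 24.9 in C replicate 1, 3.60 in C replicate 2 and 23.3 in C replicate 3. In M replicates 1 to 3 it was 1.46, 1.74 and 1.01, and in L 1.30, 0.65 and 1.24. In these clusters C replicate 2 lay between its own group and the M and L libraries, nearer to the latter. The 122 are those that dropped out once C replicate 2 was counted, so a low value there follows from the choice. C replicate 2 was at or below the highest M or L value in 57 of the 122 clusters and listed at 0 in 21 of them. In none did it reach the lower of the other C values, since such a cluster would have stayed in the set. All but 1 of the 122 carried the parent number 17261.

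The most abundant of the 122 stood at 802.19 and 684.51 FPKM in C replicates 1 and 3 and at 219.2 in C replicate 2, with 34.99, 55.97 and 34.82 in M and 84.79, 71.84 and 0 in L. The next held 547.42 and 717.29 FPKM in C replicates 1 and 3, but 4.18 in C replicate 2, 4.18, 2.53 and 1.6 in M and 3.25, 0.59 and 6.7 in L. In the latter cluster C replicate 2 had the level of the M and L libraries. Both were picked after their values were seen, by the lower of C replicates 1 and 3. All 15 clusters of the set, by contrast, had at least 12.6 FPKM in C replicate 2, where the rule required at least 10. C replicate 2 was the lowest C library in 8 of the 15, beside 39.3% of the 9625 clusters at 10 FPKM or more in every C library.

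**Figure D3:**
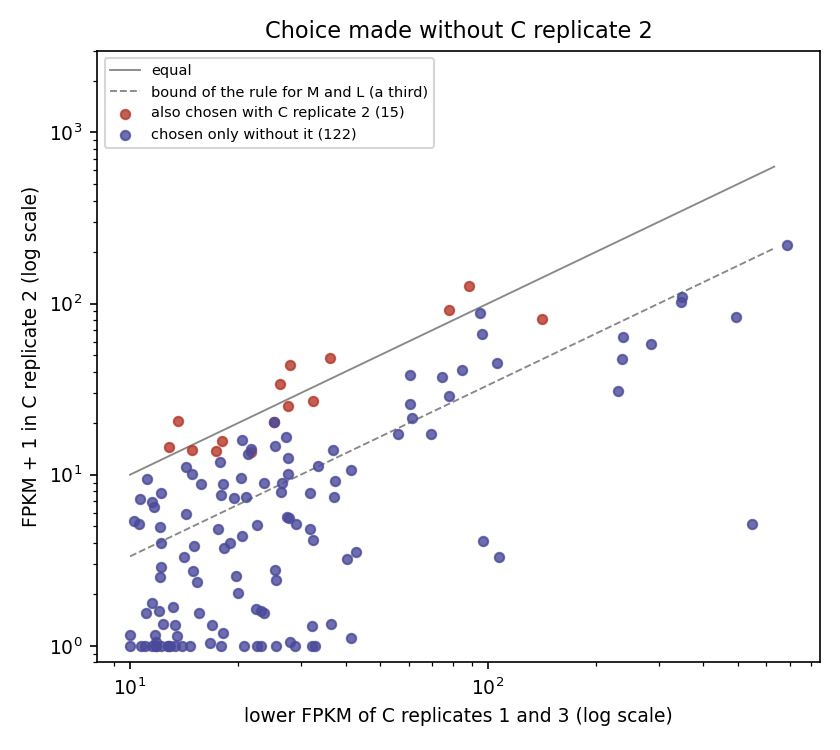
FPKM plus 1 in C replicate 2 is plotted against the lower FPKM of C replicates 1 and 3, on log axes, for the 137 clusters chosen without C replicate 2. The 15 clusters also chosen with it lie around the line of equal values. The other 122 lie below that line by the choice, since they dropped out once C replicate 2 was counted. Of these 122, 83 lie on or under the dashed 3-fold bound and 21 are at 0.

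Leaving out an M or L library changed the set less, except for M replicate 2. Without it 38 clusters were chosen, 14 of the 15 among them. In M replicate 2 the 24 added clusters had a median of 9.45 FPKM and reached 222.95. In 1 of the 24 it was at or above the lowest C value. Without M replicate 1 or 3 the sets held 18 and 22 clusters, and without L replicates 1 to 3 they held 18, 17 and 17. In the left-out L libraries 15 of 18, 16 of 17 and 15 of 17 clusters were again at least 3-fold below every C library, and in M replicates 1 to 3 these were 15 of 18, 17 of 38 and 17 of 22. Among all 9625 clusters with at least 10 FPKM in every C library, 17.7%, 21.8% and 19.1% were that low in L replicates 1 to 3, and 1.52%, 1.23% and 2.13% in M replicates 1 to 3. The choice and these readings share the C libraries.

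L replicate 2 gave the lowest values of its group. Summed over the 15 clusters it held 25.8 FPKM, against 38.3 and 46.5 in L replicates 1 and 3. It was the lowest L library in 8 of the 13 clusters whose L values differed, ties counted. Its median over all clusters was also the lowest, 0.47 FPKM against 0.59 and 0.83, and among clusters at 10 FPKM or more in every C library it was the lowest L library in 44.2%. The part of this general shift in the values of the 15 was not tested.

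Across the 15 clusters the ranks of the C libraries were alike, with Spearman correlations of 0.782 to 0.939 between the replicates. M and L libraries ranked the clusters in a similar order to each other, at 0.468 to 0.881 between single libraries and 0.932 between the group means. The rule bounds the ratio of L to M on both sides, which favours a like order in M and L. It sets only a lower bound on C against M and L. The C mean had correlations of 0.284 with the M mean and 0.420 with the L mean. Single C libraries had -0.043 to 0.520 with M libraries and -0.147 to 0.605 with L libraries, which overlaps the range between M and L. These are descriptions over 15 clusters that share libraries and were chosen on these values, with 2 tied at 0 in M and L, and carry no p. A cluster abundant in C was thus not always the one with most left in M and L.

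The same bound turned round gives the setting of the set. With 10 FPKM and 3-fold over the values plus 1, 52 clusters were lower in M than in C and 1282 were lower in L than in C, counted over these 2 groups alone. In the upward direction 347 were higher in M and 934 higher in L. Lower in both were 38 clusters and higher in both were 211. With the ratio of L to M from 0.5 to 2 and group means below 1000, 15 were low in both and 100 were high in both. Low in L against both C and M were 469 clusters, and low in M against both C and L was 1. These counts rest on shared libraries and FPKM as deposited, carry no test, and describe only clusters past a strict bound. The low counts also need every C library to be high, and without C replicate 2 the rule chose 137 clusters instead of 15. A low value in C replicate 2 cannot keep a cluster out of the high counts. The high counts were not made without that library, so the difference between low and high counts may hang on it.

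**Figure D4:**
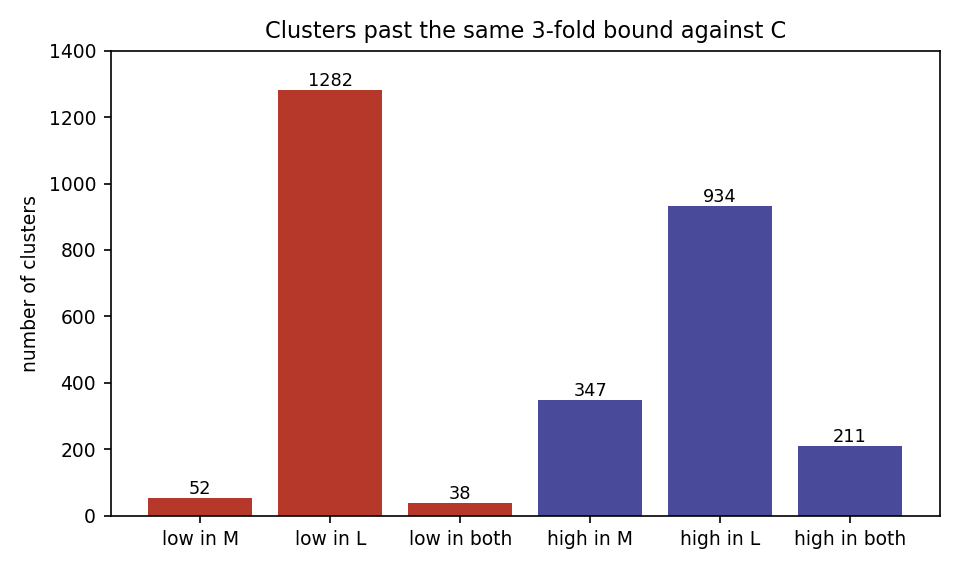
Bars give the number of clusters past the same bound (at least 10 FPKM in every library of the higher side, and at least 3 times the highest value of the lower side plus 1) against C, in M, in L and in both. Low clusters number 52, 1282 and 38, and high clusters number 347, 934 and 211. The low counts need every C library to be high, C replicate 2 included, and no bar was counted without that library.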

How the data were processed

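Poly(A) RNA of leaves was sequenced in 9 libraries, 3 in each of the groups C, M and L as the sample titles code them. The authors deposited FPKM, named so per the file headers, with 2 decimals. No source used here names the aligner, assembler or counting tool, and the mouse build that the submitters' processing notes name was not used. Low values can be off by rounding and by single fragments, and FPKM are relative within a library.

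The members and all comparison sets were chosen with earlier results of these data known. The background came from limma (version 3.58.1, R 4.3.3) on log2(FPKM + 1), with a term per group, a variance trend on intensity and Benjamini-Hochberg adjustment over the 35314 clusters that reached 1 FPKM in 3 or more libraries. The fit was tested on data simulated from its own variances, with independent values and equal group means apart from the added falls. That setting has no general shift of L and no library like C replicate 2, so it does not cover these. P-values measure the spread between these libraries, which may be technical. No pair of libraries held identical values.

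Identifiers were printed for the cluster with the largest fall of M against C and for the one with the highest C mean, or the next where both coincided, as they did. The other 13 are described by rank. Alternatives were other pseudocounts, no filter, quantile normalization, median scaling, a replicate block, other bounds of the rule and leaving out each library in turn.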

Additional observations from a re-analysis of the deposited data

How the results depend on the processing

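With pseudocounts of 0.1 and 5 the median log2 fold change of the 15 clusters was -3.55 and -2.07 in M against C and -4.07 and -2.23 in L against C, and after median scaling it was -2.54 in L against C. A pseudocount of 5 left 1997, 6980 and 4776 of all clusters called in M against C, L against C and L against M, where 4545, 14379 and 11185 were called with 1. With a pseudocount of 0.1, 3 of the 15 were called in L against M. Other bounds gave sets of 67 (2-fold) and 5 (5-fold) clusters, of 30 and 8 (lowest C value of 5 and 20 FPKM), and of 31 without a bound on the L to M ratio. Quantile normalization and median scaling gave 19 and 17 clusters, 10 and 9 of them among the 15. All 15 stayed called lower than C under each pseudocount, scaling, block and left-out library. The rule chose them for this contrast in the same libraries, so this shows nothing about how firm the contrast is. In M against C, 4.80% of all tested clusters were called lower after quantile normalization and 3.97% after median scaling. Leaving out 1 library gave sets of 17 to 137 clusters, 0 to 1 of the 15 called in L against M, and medians from -3.10 to -2.89 in M and -3.48 to -3.23 in L against C. All clusters called then numbered 3078 to 5564, 13680 to 14610 and 10299 to 11691 in M against C, L against C and L against M. Of 311 choices made with 1 library left out, 45.0% held in that library, from 10.9% (C replicate 2) to 94.1% (L replicate 2). These choices overlap and count the same clusters again, with 14 or 15 of the 15 in each, so 45.0% is not a rate of replication. For a left-out C library the clusters that held are the 15 themselves, by the rule.

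The groups share replicate numbers. Deviations of same-numbered libraries from their group means correlated at -0.06 to 0.03 over tested clusters, so no pairing by number was visible. A pairing with small effects could give the same values. With a replicate block 4089, 14315 and 10967 clusters were called, and 15, 15 and 0 of the 15. Fragment numbers are not given, so no counting interval can be set on values near 0.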
